A study of Sus scrofa with 19 samples.

Results

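The genes described are the class II genes of the pig major histocompatibility complex (MHC) that the array annotation lists under the symbols SLA-DRA, SLA-DRB1, SLA-DQA1, SLA-DQB1 and SLA-DOB. SLA stands for swine leucocyte antigen, the pig's MHC. Members were taken by symbol: every probe set (the group of oligonucleotides that reads a transcript) whose only gene symbol was among these 5. This gave 5 genes of the 12217 with a probe set of their own symbol, 1 probe set each: 15308802 for SLA-DRA, 15315144 for SLA-DRB1, 15308808 for SLA-DQA1, 15315149 for SLA-DQB1 and 15315155 for SLA-DOB. The values are log2 signals of whole adrenal glands from 19 male piglets, 1 per sow, on 1-colour Affymetrix arrays. The sows ate a control, fish oil or microalgae diet from gestation day 75 and were given LPS (lipopolysaccharide, the bacterial cell wall component that provokes inflammation) or, as its control, saline at day 112 of gestation. Piglets were weaned at 21 days. All 19 piglets, those of saline-treated sows included, were themselves given LPS at 28 days and killed 2 hours later, so no gland is from an unchallenged piglet.

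The groups were control diet after maternal saline (3 piglets: 8, 14 and 21) and after maternal LPS (3: 6, 16 and 17), fish oil with maternal saline (4: 9, 11, 13 and 18) and with maternal LPS (4: 10, 19, 20 and 24), and microalgae with maternal saline (3: 12, 15 and 22) and with maternal LPS (2: 7 and 23). Fish oil and microalgae both supply omega-3 fatty acids of the long-chain kind. The labels give no breed, SLA type or dose.

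Class II molecules are dimers of an alpha and a beta chain that present peptides from outside the cell to CD4+ T cells. Antigen-presenting cells (macrophages, dendritic cells and B cells) carry them constitutively, and other cells can make them in response to interferon gamma through the transactivator CIITA. SLA-DRA and SLA-DRB1 encode the alpha and beta chains of DR, and SLA-DQA1 and SLA-DQB1 those of DQ. SLA-DOB encodes the beta chain of DO, which does not present peptides but restrains DM, the chaperone that loads peptide onto class II, and is typical of B cells and some dendritic cells. SLA-DRB1, SLA-DQA1 and SLA-DQB1 are highly polymorphic in pigs, and SLA-DRA is much less so. Whether the alleles a piglet carried shifted the signals of those 3 probe sets was not tested, and this holds for each SLA-DRB1 difference and chain ratio given here.

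In the RefSeq table of assembly Sscrofa11.1 the class II genes lie together on chromosome 7 in the order SLA-DRA, SLA-DRB1, SLA-DQA1, SLA-DQB1, SLA-DOB, SLA-DMB, SLA-DMA and SLA-DOA. Between them the table lists SLA-DRB4, SLA-DRB5, SLA-DQB2 and SLA-DYB as pseudogenes, none with a probe set of its own symbol here. Whether the SLA-DRB1 and SLA-DQB1 probe sets also read those relatives was not tested.

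Array medians lay between 4.38 and 4.52 and correlations between arrays, across probe sets, between 0.934 and 0.982. The interquartile range of an array, a measure of its spread, ran from 2.27 (piglet 24) to 2.65. Precision is limited by the number of arrays. The adrenal origin was borne out by CYP17A1 and CYP21A2 of the cortex, with means of 12.36 and 11.22, and by DBH and PNMT of the medulla, with 6.59 and 7.14. Of the genes that mark class II bearing cells, 16 of 18 listed for macrophages were measured, 6 of 12 for B cells and 5 of 12 for dendritic cells. Among the unmeasured were CD68, CD163, MS4A1, ITGAX and CLEC9A. Probe sets with a mean under 3.23 log2, the lowest 25% of all, were left out of testing as dim. That applied to FCGR1A among macrophage, FCRLA among B cell and XCR1 and FCER1A among dendritic cell markers. All 5 class II genes passed, and the lowest value of any of them on any array was 3.87. In RNA of a whole gland, fewer cells of a type and less RNA per cell cannot be told apart.

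Signals of different probe sets cannot be ranked against each other, so each gene is described by its own range. Over the 19 piglets SLA-DRA had a mean of 8.22 ± 0.349 (SD), SLA-DQA1 7.40 ± 0.350, SLA-DQB1 6.30 ± 0.289, SLA-DRB1 5.67 ± 0.480 and SLA-DOB 5.20 ± 0.611. SLA-DOB, running from 3.87 to 6.25, spread most between piglets, and SLA-DQB1, from 5.88 to 6.86, least.

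**Figure D1:**
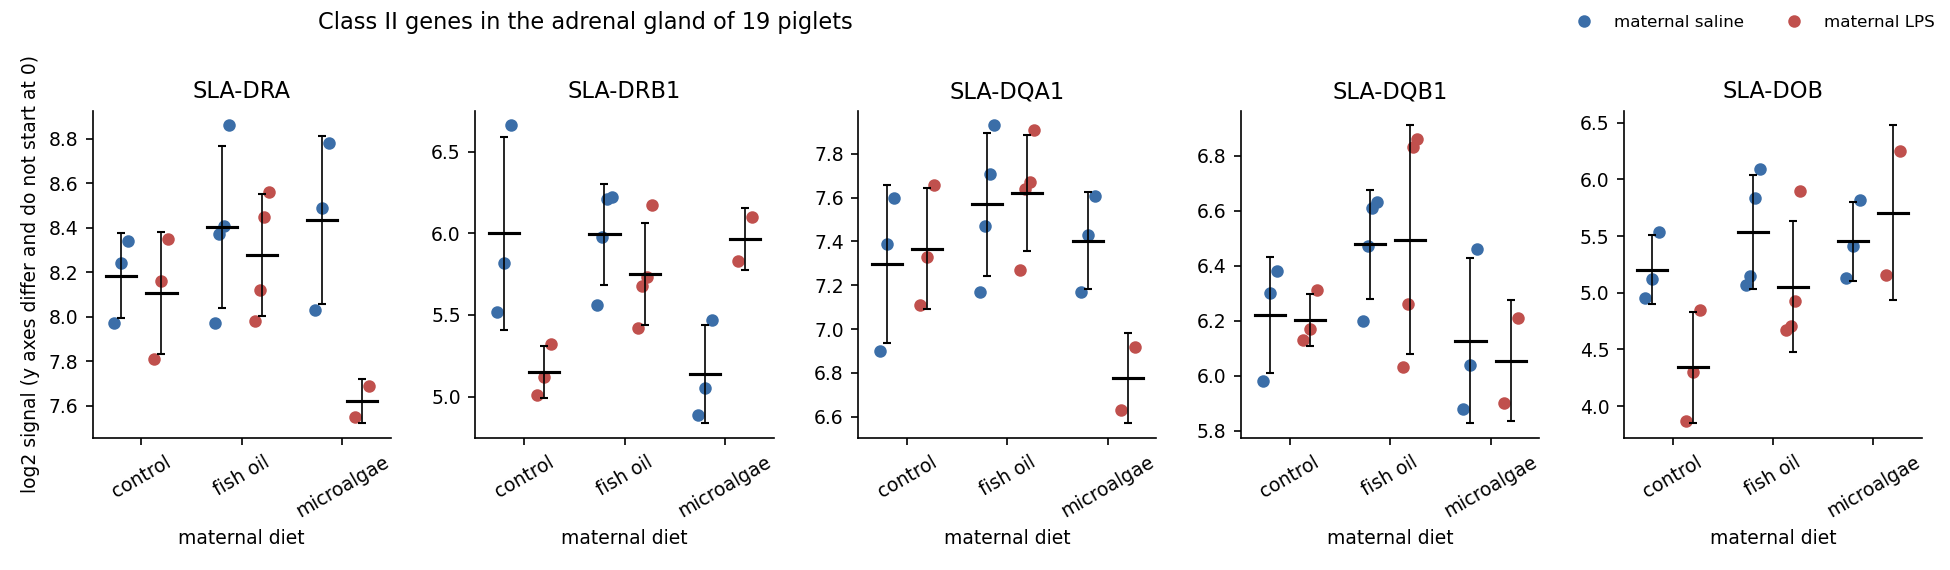
Log2 signal of each class II gene (y axis, its own scale per panel, not starting at 0) by maternal diet (x axis) and maternal challenge (blue saline, red LPS); points are piglets, horizontal bars group means and vertical bars the SD. SLA-DRB1 is at 5.32 or lower in the control-diet LPS group and at 5.47 or lower in the microalgae saline group. SLA-DRA is lowest in the 2 microalgae LPS piglets. SLA-DQA1 has its lowest mean in that group, but control saline piglet 14, at 6.90, lies below microalgae LPS piglet 23, at 6.92.

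Maternal LPS was the first question, over the 3 diets, with 9 piglets of LPS-treated sows against 10 of saline-treated sows. All 5 class II genes had a lower mean after maternal LPS, where 48.2% of all 20668 probe sets tested did, and the median of the 5 differences was -0.17 log2 against 0.01 over all probe sets. The signs are not 5 separate observations, as SLA-DRA, SLA-DQA1 and SLA-DQB1 varied together across piglets (Pearson's r 0.65 to 0.79). That of SLA-DQB1 (-0.02) changed with quantile normalization and that of SLA-DRB1 (-0.09) without piglet 21. None of the 5 passed the threshold, an adjusted p of 0.05 over all probe sets tested, which 0.00968% of probe sets (2) passed. By limma's unadjusted p under 0.05, 1 of the 5 was lower, SLA-DRA, where 3.59% of all probe sets were.

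SLA-DRA, the DR alpha chain, had values of 7.97, 8.24 and 8.34 in control piglets after maternal saline and 7.81, 8.16 and 8.35 after maternal LPS. With fish oil they were 7.97, 8.37, 8.41 and 8.86 after saline and 7.98, 8.12, 8.45 and 8.56 after LPS. With microalgae they were 8.03, 8.49 and 8.78 after saline and 7.55 and 7.69 after LPS. The groups overlapped in the control and fish oil diets, and in the microalgae diet both LPS piglets lay below all 3 saline piglets, as they did for 14.7% of all probe sets. The difference over the diets was -0.34 ± 0.136 (SE; 95% interval -0.62 to -0.05), with limma's unadjusted p = 0.0231 and an adjusted p of 0.681. The exact permutation test of this gene alone, two-sided with labels permuted within diets, gave p = 0.0662, where the smallest possible was 7.14e-05. By diet the difference was -0.08 in control, -0.12 in fish oil and -0.81 in microalgae offspring.

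SLA-DOB, the DO beta chain, had a difference of -0.37 ± 0.211 (95% interval -0.81 to 0.08; adjusted p 0.711), also over the 3 diets. SLA-DQA1, the DQ alpha chain, had -0.17 ± 0.133 (-0.45 to 0.11). SLA-DRB1 had -0.09 ± 0.152 (-0.41 to 0.23) and SLA-DQB1 -0.02 ± 0.126 (-0.29 to 0.24). These 4 intervals hold 0, and none is narrow enough to show that the level was the same after LPS and saline.

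**Figure D2:**
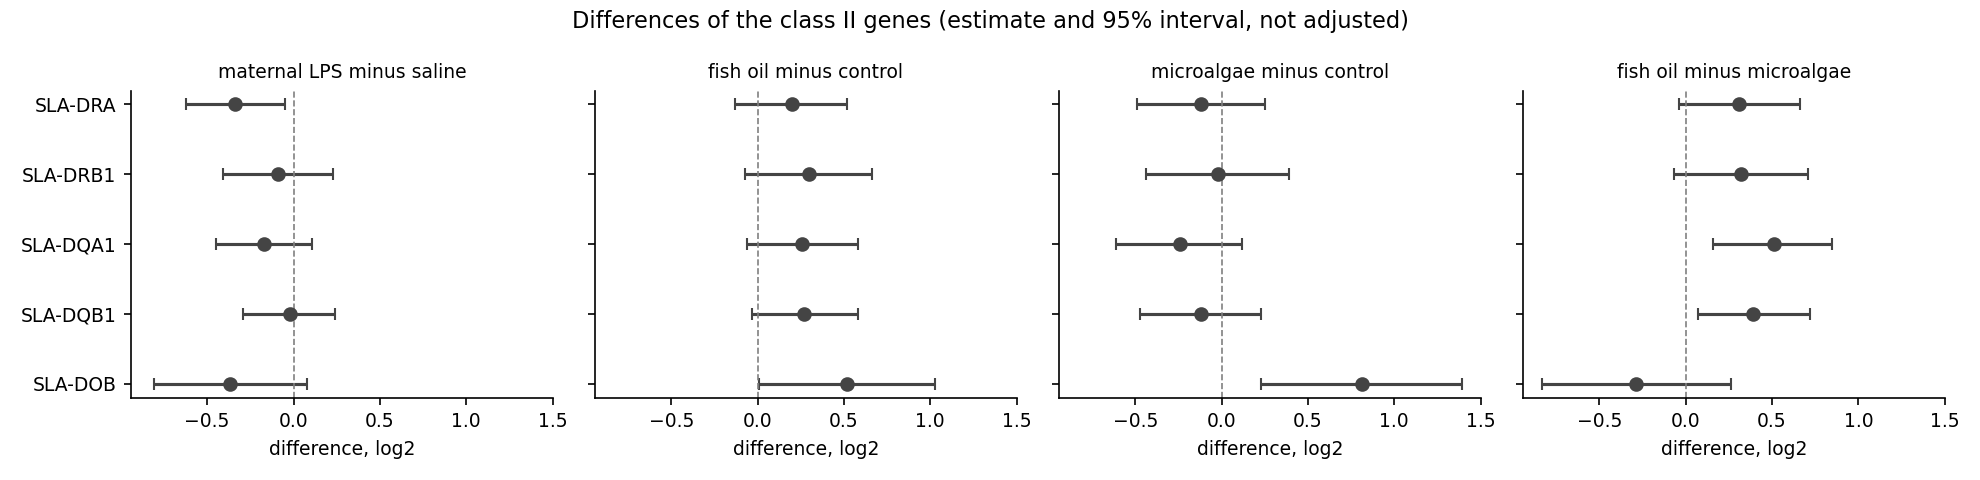
Differences in log2 signal (x axis) of the 5 class II genes (y axis) in the 4 comparisons over all groups; points are limma estimates and bars 95% intervals not adjusted for the number of genes. The interval lies below 0 for SLA-DRA after maternal LPS, and above 0 for SLA-DOB in both omega-3 diets against control and for SLA-DQA1 and SLA-DQB1 in fish oil against microalgae.

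The small mean difference of SLA-DRB1 held opposite differences within the diets. In control offspring its values were 5.52, 5.82 and 6.66 after maternal saline and 5.01, 5.12 and 5.32 after maternal LPS. In microalgae offspring they were 4.89, 5.05 and 5.47 after saline and 5.83 and 6.10 after LPS. In fish oil offspring they were 5.56, 5.98, 6.21 and 6.22 after saline and 5.42, 5.68, 5.73 and 6.17 after LPS. Every LPS piglet thus lay below every saline piglet in the control diet and above every saline piglet in the microalgae diet, and the fish oil groups overlapped. Of all probe sets, 2.92% were separated downward in the control diet and 16.9% upward in the microalgae diet, and 0.445% did both, like SLA-DRB1. With 3 piglets against 2, as many as 31.6% of probe sets were separated in either direction in the microalgae diet.

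By limma the SLA-DRB1 difference of maternal LPS was -0.85 ± 0.262 in control (95% interval -1.40 to -0.30), -0.24 ± 0.227 in fish oil (-0.72 to 0.23) and 0.83 ± 0.293 in microalgae offspring (0.21 to 1.44). The difference between microalgae and control offspring in the effect of maternal LPS, the interaction, was 1.68 ± 0.394 (0.85 to 2.51), with an unadjusted p of 0.000493 in limma and an adjusted p of 0.858. Of all probe sets 2.87% were higher in this interaction at an unadjusted p under 0.05. The joint test of both interactions gave an unadjusted p of 0.00186 and an adjusted p of 0.972. Of all probe sets 4.75% had an unadjusted p under 0.05 in that joint test and 0% passed after adjustment. Among the 20668, 22 had a smaller joint p than SLA-DRB1. Leaving out any 1 piglet gave an interaction between 1.35 (without piglet 21) and 1.92, with adjusted p from 0.50 to 0.996.

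Read across diets, the order of SLA-DRB1 group means was control after saline, fish oil after saline (5.99, lower by 0.01), microalgae after LPS (5.96), fish oil after LPS (5.75), control after LPS (5.15) and microalgae after saline (5.14). The widest step, 0.60 between fish oil after LPS and control after LPS, had an unadjusted p of 0.0253 and an adjusted p of 1 in limma, and the 4 others were 0.21 or less. After maternal saline, microalgae offspring lay below all control offspring by 0.86 ± 0.262 on average, and after maternal LPS above them by 0.81 ± 0.293. The groups did not overlap in either case. Downward separation after saline was found in 4.25% and upward separation after LPS in 10.1% of probe sets.

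SLA-DRA, the partner of SLA-DRB1 in the DR dimer, did not follow the same order. Its highest mean was in microalgae offspring after saline (8.43) and its lowest in microalgae offspring after LPS (7.62), where SLA-DRB1 was lowest and near its highest. The log2 ratio of the SLA-DRB1 to the SLA-DRA signal, chosen after the values were seen, differed after maternal LPS by -0.77 in control, -0.12 in fish oil and 1.64 in microalgae offspring. In the microalgae diet the ratio lay between -3.73 and -2.56 after saline and between -1.72 and -1.60 after LPS. The exact permutation p within diets was 0.20, 0.371 and 0.20, and the design cannot go below 0.10 in the control and microalgae diets. For the 2 DQ chains, the log2 ratio of SLA-DQB1 to SLA-DQA1 shifted by -0.09, -0.03 and 0.56 in the same 3 diets, with exact permutation p of 0.80, 0.857 and 0.10, the last the smallest possible there. Whether the DR and DQ ratios shifted differently was not tested.

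SLA-DQA1 resembled SLA-DRA in the microalgae diet. Its values there were 7.17, 7.43 and 7.61 after saline and 6.63 and 6.92 after LPS, without overlap, as in the 14.7% of probe sets separated downward there (31.6% either way). The difference was -0.63 ± 0.257 (limma adjusted p 0.373). In control offspring they were 6.90, 7.39 and 7.60 after saline and 7.11, 7.33 and 7.66 after LPS, and in fish oil offspring 7.17, 7.47, 7.71 and 7.93 after saline and 7.27, 7.64, 7.67 and 7.91 after LPS. Those groups overlapped, with differences of 0.07 ± 0.230 and 0.05 ± 0.199. The interaction of microalgae with maternal LPS was -0.74 ± 0.352 for SLA-DRA and -0.69 ± 0.345 for SLA-DQA1, with unadjusted p of 0.0514 and 0.06 in limma and an adjusted p of 0.858 for each.

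SLA-DQB1, the DQ beta chain, differed little between maternal LPS and saline in any diet, with -0.02 ± 0.219 in control, 0.02 ± 0.190 in fish oil and -0.07 ± 0.245 in microalgae offspring. Its group means ran from 6.06 (microalgae after LPS) to 6.50 (fish oil after LPS), and the widest step in that order, 0.25, lay between fish oil after saline and control after saline (limma adjusted p 1).

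**Figure D3:**
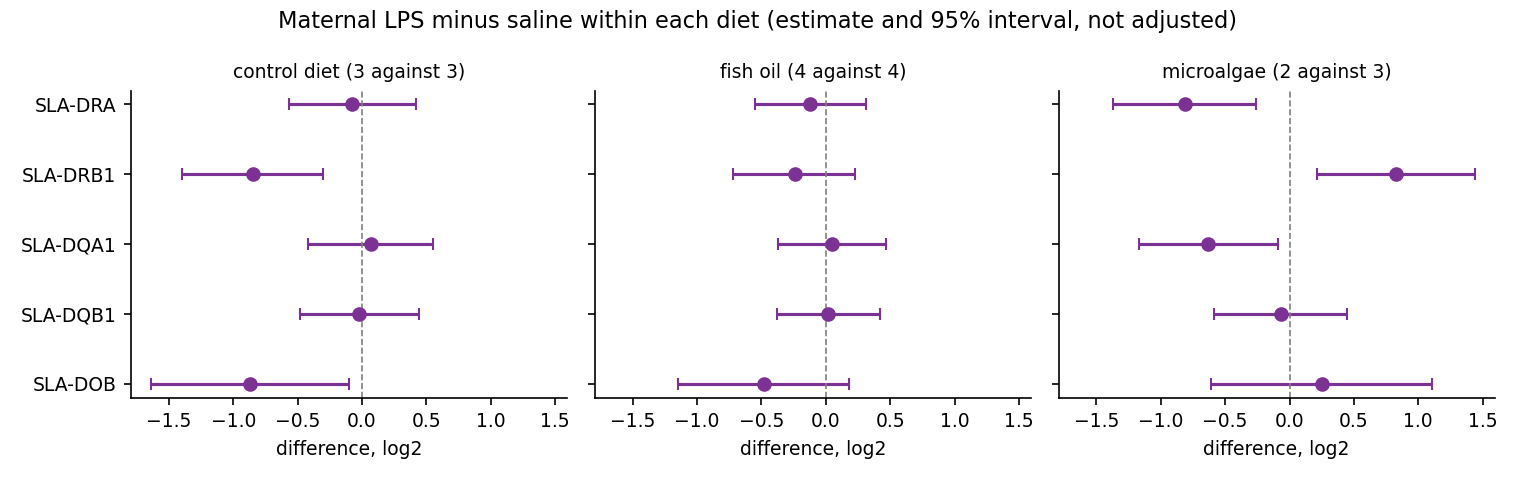
Maternal LPS minus saline in log2 signal (x axis) for each class II gene (y axis) within each maternal diet; points are limma estimates and bars 95% intervals not adjusted for the number of genes. The SLA-DRB1 estimate is -0.85 in control and 0.83 in microalgae offspring, whereas SLA-DRA and SLA-DQA1 are at -0.81 and -0.63 in microalgae offspring and near 0 elsewhere.

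SLA-DOB was lower after maternal LPS in the control diet. Its values there were 4.95, 5.12 and 5.54 after saline and 3.87, 4.30 and 4.85 after LPS, with no overlap, as in the 2.92% of probe sets separated downward there, and a difference of -0.87 ± 0.366 (limma adjusted p 1). With fish oil they were 5.07, 5.15, 5.84 and 6.09 after saline and 4.67, 4.71, 4.93 and 5.90 after LPS, where piglet 20 was the high one. With microalgae they were 5.13, 5.41 and 5.82 after saline and 5.16 and 6.25 after LPS. The groups overlapped in both omega-3 diets, with differences of -0.48 ± 0.317 and 0.25 ± 0.409. The interaction of microalgae with maternal LPS was 1.12 ± 0.549 (unadjusted p 0.0572 and adjusted p 0.858 in limma) and moved with single piglets, from 0.57 without piglet 7 to 1.66 without the other piglet of that group, 23.

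The comparison of maternal fish oil with the control diet used 8 and 6 piglets. All 5 class II genes had a higher mean with fish oil, where 50.4% of all probe sets did, and the median of the 5 differences was 0.27 against 0.00 over all probe sets. Here too the signs are not 5 separate observations. By limma's unadjusted p under 0.05, 1 of the 5 was higher, SLA-DOB, where 1.39% of all probe sets were, and 0% of probe sets passed after adjustment. The differences were 0.52 ± 0.242 for SLA-DOB (95% interval 0.01 to 1.03), 0.30 ± 0.174 for SLA-DRB1 (-0.07 to 0.66), 0.27 ± 0.145 for SLA-DQB1 (-0.03 to 0.58), 0.26 ± 0.152 for SLA-DQA1 (-0.06 to 0.58) and 0.20 ± 0.155 for SLA-DRA (-0.13 to 0.52), each with an adjusted p of 1. The exact permutation p was 0.0661 for SLA-DOB and 0.0865 for SLA-DQB1, and higher for the others.

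By maternal challenge, the SLA-DRB1 difference of fish oil was -0.01 ± 0.246 after saline and 0.60 ± 0.246 after LPS, and the latter groups did not overlap (1.78% of probe sets were separated upward). The difference between these, 0.61 ± 0.347, had an unadjusted p of 0.098 in limma. SLA-DQA1 and SLA-DQB1 differed about equally after saline and LPS, by 0.27 and 0.25 for SLA-DQA1 and 0.25 and 0.29 for SLA-DQB1. Of the macrophage markers, all 15 tested had a higher mean with fish oil (median 0.14), where 50.4% of all probe sets did, and 0 passed the adjusted threshold. By challenge 14 of the 15 were higher after saline (median 0.42) and 6 after LPS (median -0.08), where 51.2% and 49.3% of all probe sets were. Of the T and NK cell markers 9 of 10 tested were higher with fish oil (median 0.21). Among them 2 had an unadjusted p under 0.05 in limma, where 1.39% of all probe sets were higher at that p. Of the dendritic cell markers 0 of 3 were higher (median -0.20). The part of these cells in the class II differences was not tested beyond the macrophage covariate. With the mean of the macrophage markers as covariate, a setting added after the data were seen, the fish oil difference was 0.03 for SLA-DRA, 0.13 for SLA-DQA1 and for SLA-DQB1, 0.26 for SLA-DRB1 and 0.47 for SLA-DOB.

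Maternal microalgae, 5 piglets against 6 on the control diet, went with a higher mean of SLA-DOB. The difference was 0.81 ± 0.274 (95% interval 0.23 to 1.39), with an unadjusted p of 0.00874 and an adjusted p of 1 in limma and an exact permutation p of 0.04. Of all probe sets 0.856% were higher at an unadjusted p under 0.05, and 0% passed after adjustment. The difference was 0.25 ± 0.366 after maternal saline, where the groups overlapped, and 1.37 ± 0.409 after maternal LPS. There 5.16 and 6.25 stood against 3.87, 4.30 and 4.85, as in the 10.1% of probe sets separated upward between these groups. The difference over both challenges was 0.54 without piglet 7 and 1.08 without piglet 23, the 2 piglets of the microalgae LPS group. It was 0.69 without piglet 17, the animal with the lowest SLA-DOB value.

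The other 4 genes had negative differences with microalgae, namely -0.24 ± 0.172 for SLA-DQA1, -0.12 ± 0.176 for SLA-DRA, -0.12 ± 0.164 for SLA-DQB1 and -0.02 ± 0.197 for SLA-DRB1. Of all probe sets 49% were lower. The mean of the 6 measured B cell markers lay between 4.25 and 4.91. They ran from 4.40 to 4.74 in control and 4.36 to 4.59 in microalgae offspring after LPS, and from 4.44 to 4.77 and 4.25 to 4.82 after saline. The markers did not go one way. After LPS, BANK1, the most variable of them (SD 0.771 over the 19 piglets), had a mean of 8.3 in control and 7.3 in microalgae offspring. The difference of microalgae from control offspring there was -0.43 for PAX5, 0.33 for CD79A, 0.07 for CD79B and 0.02 for EBF1. Over the 19 piglets the mean was 3.98 (SD 0.3) for CD79A, 4.07 (SD 0.185) for CD79B and 3.57 (SD 0.33) for PAX5. FCRLA, at 2.75, was dim. With the mean of the 6 markers as covariate, also added after the data were seen, the SLA-DOB difference was 0.82. How far that mean followed the number of B cells was not tested, nor was their part in the SLA-DOB difference beyond this covariate.

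Set directly against microalgae (8 and 5 piglets), fish oil went with higher means of the DQ chains. SLA-DQA1 differed by 0.51 ± 0.162 (95% interval 0.16 to 0.85), with an unadjusted p of 0.00611 and an adjusted p of 1 in limma and an exact permutation p of 0.021. SLA-DQB1 differed by 0.39 ± 0.155 (0.07 to 0.72; unadjusted p 0.0207 in limma, exact permutation p 0.0533). So 2 of 5 were higher at an unadjusted p under 0.05, where 1.55% of all probe sets were and 0% passed after adjustment. SLA-DRA had 0.31 ± 0.166, SLA-DRB1 0.32 ± 0.186 and SLA-DOB -0.29 ± 0.259. Markers of other cells differed in the same comparison: all 6 endothelial markers tested were higher (median 0.29; 2 at an unadjusted p under 0.05 in limma), as were 12 of 15 macrophage markers (median 0.19; 2 at that p), while 0 of 4 medulla markers were (median -0.35). Of all probe sets 48.7% were higher. The part of the endothelium and medulla in the DQ difference was not tested.

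Much of the DQA1 difference came after maternal LPS, 0.84 ± 0.244, against 0.17 ± 0.215 after saline. After LPS the 4 fish oil piglets (7.27 to 7.91) lay above both microalgae piglets (6.63 and 6.92), a separation upward found in 5.7% of probe sets. The same held for SLA-DRA, at 7.98 to 8.56 against 7.55 and 7.69, with a difference of 0.66 ± 0.249 (limma adjusted p 0.705) after LPS and -0.03 ± 0.220 after saline. SLA-DRB1 went the other way, with 0.86 ± 0.246 after saline (limma adjusted p 1, exact permutation p 0.0571) and -0.21 ± 0.278 after LPS. After saline its 4 fish oil piglets (5.56 to 6.22) lay above all 3 microalgae piglets (4.89 to 5.47), as in 2.1% of probe sets, and after LPS the groups overlapped. With the macrophage covariate the differences over both challenges were 0.35 for SLA-DQA1, 0.22 for SLA-DQB1 and 0.11 for SLA-DRA.

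Across the 19 piglets SLA-DRA, SLA-DQA1 and SLA-DQB1 varied together. Of the 10 pairs of class II genes, these 3 passed after adjustment over the pairs in permutation tests with 100000 resamples. In these and the later correlation tests all 19 piglets were shuffled without regard to group, so the p values also take in differences between groups. SLA-DRA and SLA-DQA1 had Pearson's r of 0.79 (permutation p 6e-05, adjusted 0.0006) and Spearman's rho of 0.73 (permutation p 0.0005, adjusted 0.0025). SLA-DQA1 and SLA-DQB1 had r of 0.75 (permutation p 0.00021, adjusted 0.00105) and rho of 0.75 (permutation p 0.00034, adjusted 0.0025). SLA-DRA and SLA-DQB1 had r of 0.65 (permutation p 0.00297, adjusted 0.0099) and rho of 0.64 (permutation p 0.00402, adjusted 0.0134). After the group means were removed r was 0.70, 0.72 and 0.73. Without the 2 piglets farthest from the median of the first gene it was 0.66, 0.68 and 0.55. Each r thus stayed at 0.55 or higher, and no p was computed for these values.

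SLA-DRB1 had r of 0.03 with SLA-DRA (permutation p 0.904), 0.09 with SLA-DQA1 and 0.38 with SLA-DQB1 (permutation p 0.105, adjusted 0.262). After the group means were removed these were 0.29, 0.31 and 0.37. SLA-DOB had r between -0.04 and 0.32 with the other 4. Whether these correlations differ from those within the first 3 genes was not tested.

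The same 3 genes followed the macrophage markers. The mean of the 16 measured macrophage markers lay between 4.61 and 5.40. It ran from 4.61 to 4.80 in control after saline, 5.01 to 5.02 in control after LPS, 4.68 to 5.40 in fish oil after saline, 4.72 to 5.07 in fish oil after LPS, 4.63 to 5.19 in microalgae after saline and 4.70 to 4.76 in microalgae after LPS. With it, SLA-DRA had r of 0.70 (permutation p 0.00061, adjusted 0.0061 over 20 pairs of a class II gene and a marker list) and rho of 0.67 (adjusted 0.0145). SLA-DQB1 had r of 0.68 (adjusted 0.0111) and rho of 0.68, and SLA-DQA1 r of 0.65 (adjusted 0.0143) and rho of 0.63, all by permutation. SLA-DRB1 and SLA-DOB had r of -0.07 and -0.01. In the control diet 13 of the 15 tested macrophage markers were higher after maternal LPS (median 0.39), where 50.3% of all probe sets were, and in the microalgae diet 12 were lower (median -0.19), where 46.7% were. After the group means were removed the 3 values were 0.86 (SLA-DRA), 0.79 (SLA-DQB1) and 0.69 (SLA-DQA1), and without the 2 farthest piglets 0.63, 0.71 and 0.63.

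Markers of T and NK cells also went with SLA-DQB1, with r of 0.82 (permutation p 1e-05, the smallest these resamples can give; adjusted 0.0002) and rho of 0.79. For SLA-DQA1 r was 0.57 (adjusted 0.0413) and rho 0.65, and for SLA-DRA r was 0.53 (adjusted 0.0647) and rho 0.58. With the group means removed r was 0.90 for SLA-DQB1, 0.74 for SLA-DQA1 and 0.72 for SLA-DRA. For both DQ genes these were higher than with the macrophage markers. The T and NK cell mean was not tried as a covariate. B cell markers had r between -0.15 and 0.37 with the 5 genes, and dendritic cell markers between -0.49 and -0.06, none past 0.05 after adjustment in permutation tests. The list means included markers under the filter. These were 2 of 5 for dendritic cells, 1 of 6 for B cells, 1 of 16 for macrophages and 2 of 12 for T and NK cells. With the macrophage mean as covariate, a setting added after the data were seen, some interactions shrank and others grew. That of microalgae with maternal LPS was -0.11 for SLA-DRA and -0.20 for SLA-DQA1, against -0.74 and -0.69 without the covariate. For SLA-DRB1 it was 1.82, against 1.68, and for SLA-DQB1 0.48, against -0.05. The interaction of fish oil with maternal LPS was 0.57 for SLA-DRA, 0.47 for SLA-DQA1 and 0.56 for SLA-DQB1, against -0.05, -0.02 and 0.04. The part of macrophages in these interactions was not tested. The maternal LPS difference of SLA-DRA over the diets was -0.34 with and without the covariate, with a limma adjusted p of 0.346 with it.

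**Figure D4:**
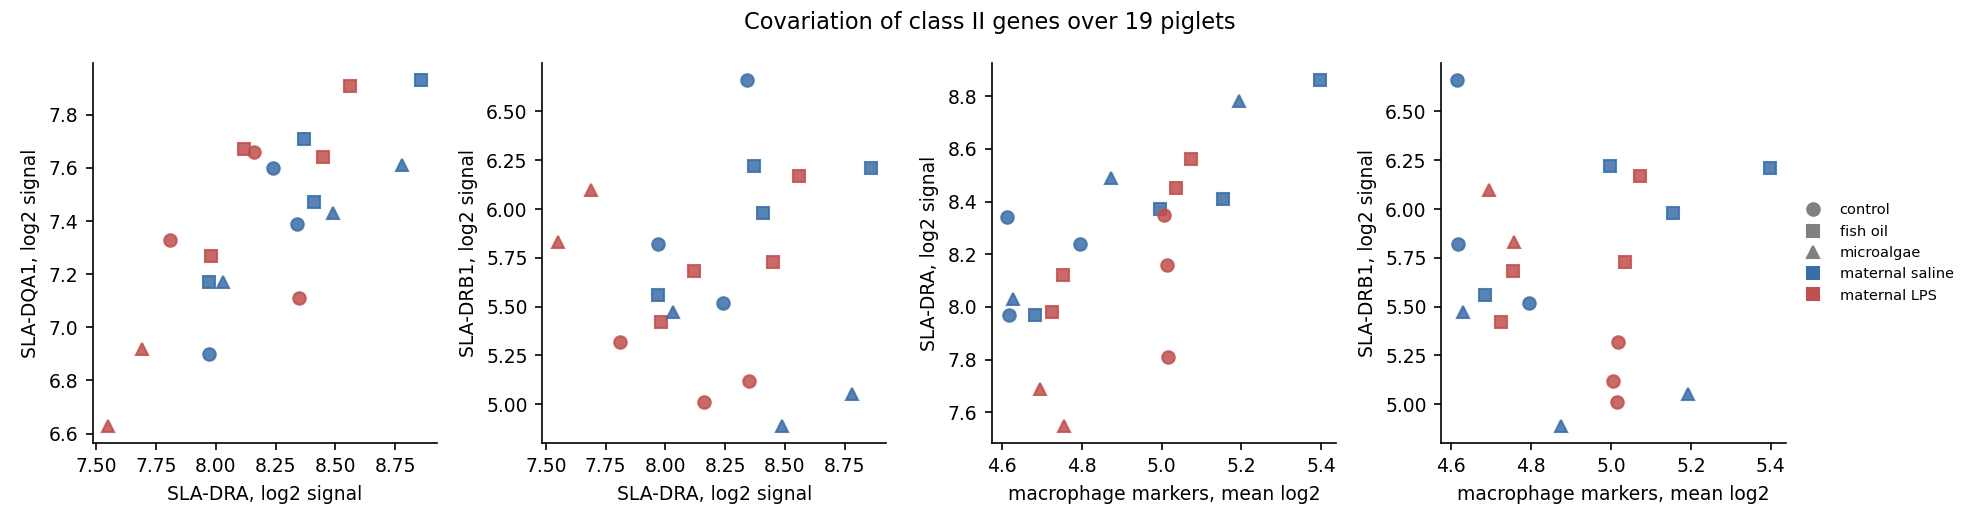
Log2 signals of pairs of class II genes, and of SLA-DRA and SLA-DRB1 against the mean log2 signal of 16 macrophage markers; each point is a piglet, its shape the maternal diet and its colour the maternal challenge. SLA-DRA rises with SLA-DQA1 (r 0.79) and with the macrophage markers (r 0.70), and SLA-DRB1 follows neither SLA-DRA (r 0.03) nor the markers (r -0.07).

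Among 10694 other probe sets with a symbol, those most like each gene over the 19 piglets, by Pearson's r as a description, were taken as the 3 highest. For SLA-DRA they were the membrane protein TMEM176B (0.85), the sphingolipid synthesis enzyme subunit SPTLC2 (0.82) and the ganglioside activator GM2A (0.81). For SLA-DQA1 they were DOCK8, which guides leucocyte migration (0.78), the mitochondrial enzyme subunit IDH3G (0.77) and the leucocyte tetraspanin CD53 (0.76). For SLA-DQB1 they were DYRK3 (0.88), FAM96A (0.87) and CUX1 (0.80). SLA-DRB1 had LHPP (0.72), LOC100519645 (0.71) and DET1 (0.70), and SLA-DOB had TMEM132A (0.69), PTGR1 (0.69) and CARTPT (0.68). These r values are the highest of many and share the arrays and groups.

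Of the other class II pathway genes, 25 of 36 listed were measured and 23 tested. CIITA and the invariant chain CD74 were not among those measured, and CREB1 and IFNG were dim. Of the 23, 0 passed limma's adjusted threshold in any comparison. At an unadjusted p under 0.05, 4 of the 23 were lower after maternal LPS, where 3.59% of all probe sets were: IFI30, the thiol reductase that opens antigens for class II (-0.34 ± 0.131), RFX5, which binds class II promoters (-0.24 ± 0.109), JAK2, which passes on the interferon gamma signal (-0.42 ± 0.170), and CD83, which stabilises surface class II (-0.38 ± 0.139). Their adjusted p values were 0.639 to 0.697. In all, 17 of the 23 were lower, with a median of -0.05, where 48.2% of all probe sets were.

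With fish oil 14 of the 23 were higher (median 0.03), where 50.4% of all probe sets were. At an unadjusted p under 0.05 in limma 1 was higher, where 1.39% of all probe sets were. This was the ubiquitin ligase MARCH8, which removes class II from the surface (0.30 ± 0.144, unadjusted p 0.0494 in limma). With microalgae 12 were higher (median 0.01), where 51% of all probe sets were. Of the 23, 0 had an unadjusted p under 0.05 in limma, where 1.65% of all probe sets did. Set against microalgae, fish oil offspring had a higher mean of CD83 (0.53 ± 0.171, unadjusted p 0.00587 in limma). It was the 1 of the 23 higher at an unadjusted p under 0.05, where 1.55% of all probe sets were. Averaged over the diets, the maternal LPS difference was -0.04 ± 0.130 for SLA-DMA and 0.02 ± 0.126 for SLA-DMB, the DM chains. It was -0.01 ± 0.108 for SLA-DOA, the DO alpha chain and partner of SLA-DOB. By diet SLA-DMB had -0.19 ± 0.218 in control, 0.26 ± 0.189 in fish oil and -0.01 ± 0.244 in microalgae offspring. The signals of SLA-DOA (mean 3.56) and SLA-DMA (4.02) were low, with 31.2% and 40.8% of probe sets below them. Whether this limited their differences and correlations was not tested. SLA-DOA differed by 0.18 ± 0.123 with fish oil and 0.25 ± 0.140 with microalgae, where SLA-DOB had 0.52 and 0.81. By challenge the microalgae differences of these DO chains went unlike ways. SLA-DOA had 0.41 ± 0.187 after saline and 0.09 ± 0.209 after LPS, where SLA-DOB had 0.25 and 1.37. Over the piglets SLA-DOB and SLA-DOA had r of 0.03 (permutation p 0.919, also after adjustment over 15 pairs) and rho of -0.11 (permutation p 0.664, adjusted 0.83). Of the 15 pairs, only SLA-DQB1 with SLA-DMB passed by r, at 0.65 (permutation p 0.00275, adjusted 0.0412). Its rho of 0.58 did not pass (permutation p 0.0104, adjusted 0.156), and r was 0.38 without the 2 piglets farthest from the SLA-DQB1 median.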

How the data were processed

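The deposited table gives log2 signals for each piglet, between 0.263 and 13.5; that range is the basis for taking the log base as 2. Transcriptome Analysis Console 4.0 is named in the submitters' processing notes, and for summarization, normalization and genome build nothing is given in the sources used here. Deposited values were used unchanged. The array annotation gives a lone gene symbol for 13157 of 27558 probe sets, and 7 outdated symbols were updated. The 6890 probe sets with a mean under 3.23 were left out and 20668 were tested. limma 3.58.1 (R 4.3.3) was fitted with 1 mean for each of 6 groups and an intensity trend (13 residual and 4.62 prior degrees of freedom). Main effects were averages over the other factor. Adjusted p values are Benjamini-Hochberg values over the 20668, two-sided, and the threshold was 0.05. The workflow was tested on simulated data. A listed gene with several probe sets was read by the brightest. Genes named besides the 5 are those of the fixed class II pathway list with an unadjusted p under 0.05 in a main comparison, the DM and DO partner chains, markers of the tissue check, and the 3 most like each gene. The partner chains were chosen after values were seen. The members and lists were chosen with earlier results of these data known. Alternatives were no or a stricter filter (50%), quantile normalization, median centring, array weights, an additive model, the array interquartile range as covariate, leaving out each piglet, and exact permutation tests. No sequence is printed.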

Additional observations from a re-analysis of the deposited data

Results flagged for a closer look

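SLA-DRB1 stood out because every piglet of LPS-treated sows lay below every piglet of saline-treated sows in the control diet and above them in the microalgae diet. The same values, read by challenge, put every microalgae piglet below every control piglet after maternal saline and above them after maternal LPS. Both readings are the same interaction, 1.68 ± 0.394 log2, with an unadjusted p of 0.000493 and an adjusted p of 0.858 in limma. The microalgae LPS group holds 2 piglets, and 31.6% of all probe sets were separated, in either direction, from the microalgae saline group. No piglet stood apart from its group by Dixon's criterion in the 10 tests of a class II gene in the fish oil groups, the groups with 4 piglets.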

How the results depend on the processing

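The 30 differences of single class II genes (4 main comparisons and the 2 interactions) had 850 refits and exact permutation tests. An adjusted p under 0.05 came from 0 of them, though the permutation tests give only an unadjusted p. In all, 809 kept their direction and their side of the threshold. Of these, 18 were permutation tests, whose unadjusted p was set against limma's adjusted p. Another 2, SLA-DOB with microalgae and SLA-DQA1 in fish oil against microalgae, passed 0.05 unadjusted in the exact permutation test, and 39 changed sign. The changes of sign were in 7 differences near 0 and, where not stated, the cause was not tested. With quantile normalization they gave 0.02 (SLA-DQB1, maternal LPS), 0.00 (SLA-DRB1, microalgae), and 0.00 (SLA-DRA) and 0.02 (SLA-DQA1) for the interaction with fish oil, and with array weights -0.15 (SLA-DQB1, the same interaction). With the macrophage covariate, added after the data were seen, the interaction with fish oil was 0.57 for SLA-DRA and 0.47 for SLA-DQA1, and that with microalgae 0.48 for SLA-DQB1. With the B cell covariate SLA-DQB1 had -0.02 and 0.02. Leaving out 1 piglet gave -0.20 to 0.11 (SLA-DRA), -0.17 to 0.18 (SLA-DQA1) and -0.08 to 0.19 (SLA-DQB1) for the interaction with fish oil, -0.20 to 0.12 for SLA-DQB1 with microalgae, -0.08 to 0.03 (SLA-DQB1) and -0.17 to 0.02 (SLA-DRB1) for maternal LPS, and -0.14 to 0.14 for SLA-DRB1 with microalgae. The SLA-DRB1 interaction with microalgae ran from 1.59 to 1.74 over 6 other settings (filter, normalization, weights and array spread).

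Over all probe sets, the count past the threshold for maternal LPS, 2, became 0 with no filter, quantile normalization, the additive model, the array spread or the macrophage covariate, 9 with array weights, and 0 to 12 without 1 piglet (12 without piglet 7). For maternal LPS in fish oil it was 0, 8 with the B cell covariate, and 0 to 2 without 1 piglet. For fish oil against microalgae after LPS it was 0, 2 with array weights, and 0 to 2 without 1 piglet. It ran from 0 to 1 for fish oil after LPS and from 0 to 3 for maternal LPS in microalgae. Without 1 of the 2 microalgae LPS piglets, the lone piglet left is assumed to vary like the other groups. The additive model gives no interaction. No paired analysis was made, as the labels give no litter, block or batch that links piglets of different groups.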
